A study of Mus musculus with 6 samples.

Results

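The genes described here are 9 RNA-binding regulators that set how long inflammatory mRNAs last: Zfp36, Zfp36l1 and Zfp36l2, Zc3h12a and Zc3h12c, Rc3h1 and Rc3h2, Elavl1 and Khsrp. They were chosen by name, as the entries whose gene symbol was one of these 9, and each symbol had a single entry among the 46603 gene identifiers of the count data. All 9 passed the filter on low counts. The study asked what activated enteric glial cells (EGCs) do, the supporting cells of the nerve plexus in the intestine, and profiled cultured EGCs by poly(A) RNA sequencing. The cells were grown from neurospheres, floating spheres of progenitors, made by digesting the total gut of E14.5 embryos (strain C57BL/6J), and were then plated in serum until confluent. The 3 control libraries came from such cells with no agent added, and the 3 LPS libraries from cells given lipopolysaccharide, a component of the bacterial outer membrane, at 100 ng/ml for 12 h. Both groups share strain, age and culture, no sort for glia is described, and a single dose and time were measured. The labels do not say whether replicates were separate cultures or animals, so p-values measure the spread between these libraries, which may be technical.

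Many mRNAs for cytokines and chemokines carry AU-rich elements or small stem-loops in their 3′ untranslated region (3′ UTR), and proteins that bind there decide whether the message is destroyed or kept. Tristetraprolin (Zfp36) and its relatives Zfp36l1 and Zfp36l2 bind AU-rich elements through CCCH zinc fingers and call in the CCR4-NOT complex, which shortens the poly(A) tail. The Regnases (Zc3h12a, Zc3h12c) cut the RNA themselves, the Roquins (Rc3h1, Rc3h2) bind stem-loops and recruit the deadenylase, KSRP (Khsrp) recruits decay enzymes to AU-rich RNA, and HuR (Elavl1) binds the same kind of RNA and generally protects it. Several of these genes are known to answer to NF-κB or p38 signalling, and several carry AU-rich elements themselves.

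The AU-rich words are shown first, because transcripts of the regulators hold the same kind of site that many of them bind. The longest annotated 3′ UTR of each gene (GENCODE M21, GRCm38) was read on the transcript strand for the pentamer ATTTA and for the nonamer TTATTTATT, which contains 1 pentamer. The nonamer occurred in 6 of the 9 regulators and in 8.6% of 13355 tested genes with a 3′ UTR of at least 100 bases. Longer 3′ UTRs have more room for it, and 7 of the 9 regulators had one above the median length of those genes, 1264 bases. Each of the following lines gives one 29-base window, with the nonamer in capitals.
Zfp36, chr7:28376951-28376979, minus strand: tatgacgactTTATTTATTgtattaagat
Zfp36l1, chr12:80108167-80108195, minus strand: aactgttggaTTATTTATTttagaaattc
Zfp36l2, chr17:84184914-84184942, minus strand: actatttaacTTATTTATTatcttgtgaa
Rc3h1, chr1:160970043-160970071, plus strand: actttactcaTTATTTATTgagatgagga
Rc3h2, chr2:37373287-37373315, minus strand: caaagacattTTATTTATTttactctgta
Elavl1, chr8:4285788-4285816, minus strand: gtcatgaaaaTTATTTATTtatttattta

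All 3 members of the tristetraprolin family and both Roquins held the nonamer once, and Elavl1 held it 8 times, in overlapping runs of which the window given is the first. These letters were not found in the annotated 3′ UTRs of Zc3h12a, Zc3h12c and Khsrp. Per kb of 3′ UTR, the density of pentamers was 4.91 in Zfp36l1, 4.69 in Rc3h2, 4.03 in Elavl1, 3.88 in Zfp36, 3.51 in Zc3h12a, 3.45 in Zc3h12c, 2.79 in Rc3h1 and 2.74 in Zfp36l2. Khsrp stood apart from these with 0.609 pentamers per kb. The median over the tested genes was 1.38 per kb, so 8 of the 9 regulators lay above it, and 72.6% of tested genes had at least 1 pentamer. A match of letters is a description of the annotated transcript and not evidence of binding.

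Before the values, the composition of the libraries needs to be given. Total counts ran from 18775316 to 23664312 per library. Glial markers were present, with Sox10, a transcription factor of enteric glia, between 73.8 and 100.7 CPM (counts divided by the corrected library size in units of 1e6). Of 8 glial markers Fabp7 rose, S100b fell (from 22.2 ± 2.2 to 5.92 ± 3.08 CPM, SD, n = 3 each) and 6, Sox10 among them, did not pass the test. Without replicate 3 of both groups, edgeR called 2 glial markers higher and 5 lower, in a fit that called 43.0% of all genes. Over the 6 libraries 9.09% of tested genes were called higher and 6.71% lower. Macrophage transcripts were present, as all 12 macrophage markers were tested and none was at 0 in any library. The lowest was Cx3cr1, at 0.198 and 0.167 CPM in LPS replicates 1 and 2, where a count of 3 was 0.148 and 0.167 CPM. Values per library are listed in the order of replicates 1, 2 and 3 throughout. The summed level of these markers was 4330, 5654 and 13490 CPM in control and 4115, 5338 and 20850 CPM under LPS. Replicate 3 therefore stood apart in both groups, as its Lyz2 (7978 and 11480 CPM, against 2385 to 3490 CPM elsewhere) and Ptprc (140.6 and 328.1 CPM, against 47.8 to 97.5 CPM) also show, and results are given with and without these libraries where they differ. Of the macrophage markers, edgeR called Adgre1 higher and none lower over the 6 libraries, where 1 had an unadjusted p under 0.05 for a fall and DESeq2 called none lower. That one was Mrc1, a mannose receptor, at 197.0, 331.4 and 752.5 CPM in control and 9.29, 10.4 and 131.3 CPM under LPS (edgeR adjusted p = 0.145). Without replicate 3 of both groups 2 rose and 6 fell by the same test, and the block on replicate number called 3 in each direction, where those fits called 43.0% and 30.3% of all genes. Mesenchymal markers summed to between 15600 and 16300 CPM in control and 15120 and 15840 CPM in LPS. Of these, 2 of 8 were called higher (2 higher and 4 lower without replicate 3). Neuronal markers summed to 485.5, 478.7 and 273.8 CPM in control and 439.6, 467.6 and 291.1 CPM in LPS, with 1 of 8 called lower. Replicate 3 was the lowest of each group in this sum and in the glial sum (626.1 CPM in control, 655.2 CPM in LPS). It thus stood apart in more than its macrophage markers. All 8 smooth muscle markers fell, and their summed level went from 2426 to 2718 CPM in control down to 702.1 to 991.9 CPM in LPS. Without control replicate 2, edgeR called 4 smooth muscle markers lower and none of the glial, macrophage, mesenchymal or neuronal markers in either direction, where 3.15% of all tested genes were called. In bulk RNA of such mixed cultures, fewer cells of a type and less RNA per cell cannot be told apart, and the part of these shifts in the values that follow was not tested.

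First, the 9 regulators were compared between LPS and control. The Regnases Zc3h12a and Zc3h12c rose, by 14.7-fold and 2.44-fold, and the other 7 did not pass the test in either direction. In the edgeR quasi-likelihood test 2 of 9 were thus called higher, at an adjusted p under 0.05, where 9.09% of all 15226 tested genes were called higher. None of the 9 was called lower, against 6.71% of tested genes, and 0 had an unadjusted p under 0.05 in that direction or were called lower by DESeq2. The groups did not overlap for 4 regulators (both Regnases, Elavl1 and Rc3h1), which is a share close to the 38.7% of all tested genes whose groups did not overlap. Without replicate 3 of both groups, 3 of the 9 (both Regnases and Zfp36l1) were called, all higher, where 43.0% of genes were called in either direction. Without LPS replicate 3 alone the same 3 were called, where 21.7% of genes were, and with the replicate block the same 2 as at first, where 30.3% of genes were. The median log2 fold change was 0.05 over the 9 regulators and -0.02 over all tested genes.

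**Figure D1:**
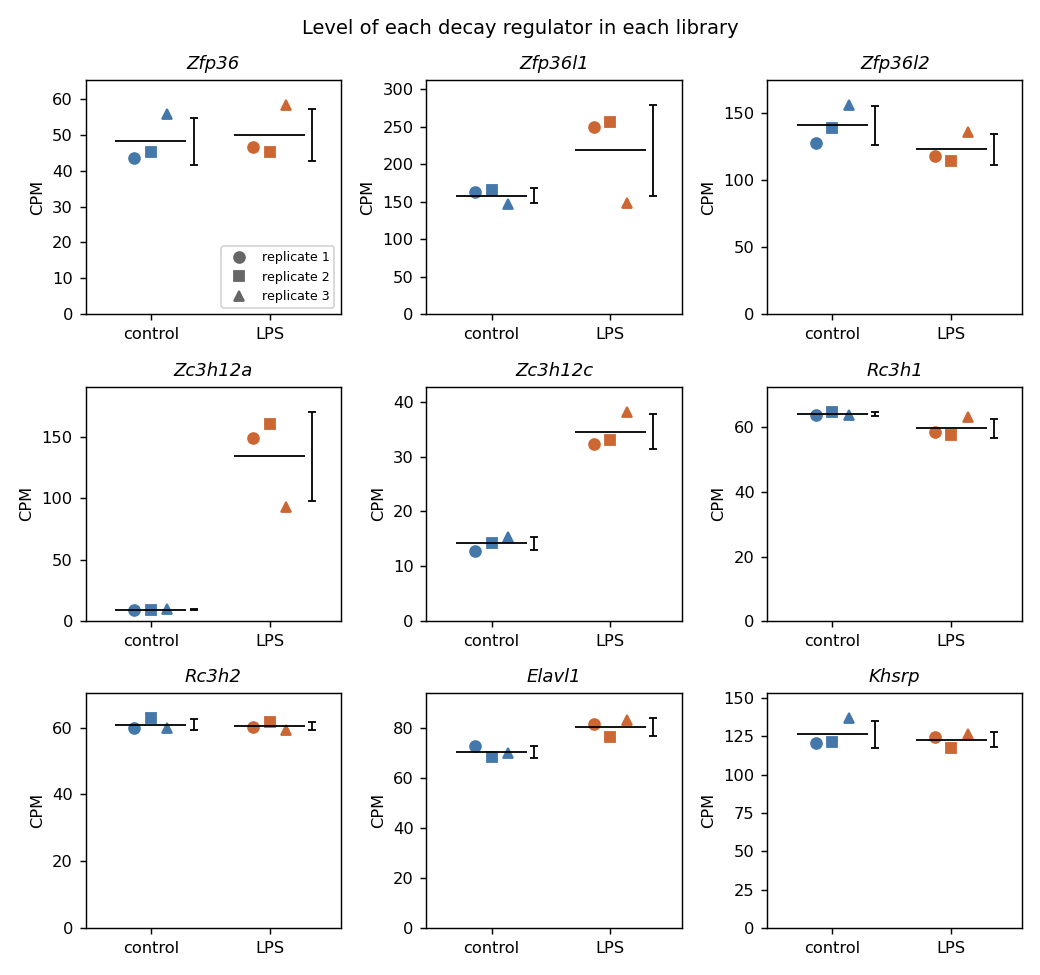
Level of each regulator in CPM (vertical axes start at 0) in the 3 control and 3 LPS libraries, with symbols for the replicate number, lines for the group mean and bars for the SD. Zc3h12a and Zc3h12c are higher in each LPS library than in each control library, and LPS replicate 3 lies apart from LPS replicates 1 and 2 for Zc3h12a and Zfp36l1.

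The tristetraprolin family was at high or moderate levels and was not called. Zfp36 (chr7:28376784-28380253, minus strand), the gene of tristetraprolin, was at 43.4, 45.3 and 55.7 CPM in control and at 46.6, 45.1 and 58.3 CPM under LPS. The groups overlapped almost fully, and the highest value of each was in replicate 3, the library with the most macrophage transcript. The log2 fold change was 0.05 (SE 0.15, 95% interval -0.30 to 0.41), with an edgeR adjusted p of 0.838. Its sign depended on the scaling and on single libraries, from -0.10 to 0.19 over 14 alternatives, and none of them called the gene.

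Zfp36l1 (chr12:80107754-80113013, minus strand), a relative that destabilizes the same class of mRNA, had the highest level per exon length of the 9. It was at 162.8, 165.1 and 146.3 CPM in control and at 250.1, 256.3 and 148.1 CPM under LPS. LPS replicates 1 and 2 were above all controls, while LPS replicate 3 lay within the control range. The edgeR log2 fold change was 0.46 (SE 0.22, adjusted p = 0.206) over the 6 libraries, where the gene was not called. Without LPS replicate 3 it was 0.68 (SE 0.08, adjusted p = 0.00517), and without replicate 3 of both groups 0.65 (SE 0.05, adjusted p = 0.000146). With the replicate number as a block it was 0.42 (SE 0.15, adjusted p = 0.0903). The macrophage sum was 20850 CPM in the library that decides this call, and its part in the result was not tested.

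Zfp36l2 (chr17:84183931-84187947, minus strand), the remaining member of the family, was at 127.6, 139.1 and 156.3 CPM in control and at 118.4, 114.7 and 136.1 CPM under LPS. The groups overlapped through LPS replicate 3. The log2 fold change was -0.20 (SE 0.11, 95% interval -0.47 to 0.08), with an edgeR adjusted p of 0.279. When library size alone was used for scaling, it was -0.35 with an edgeR adjusted p of 0.0437, under a scaling that also moved the median of all tested genes to -0.17. At the other end, it was -0.10 without control replicate 3 (edgeR adjusted p = 0.556).

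Next, the Regnases were examined, the members of the set with their own nuclease activity. Zc3h12a (chr4:125118423-125127840, minus strand) encodes Regnase-1, which cleaves stem-loops in cytokine mRNAs such as that of Il6. It had 214, 198 and 233 counts in control, or 9.07, 8.77 and 9.63 CPM. In LPS replicates 1, 2 and 3 it had 3024, 2885 and 1770 counts, or 149.4, 160.8 and 92.7 CPM. Every LPS library was far above every control library, and LPS replicate 3, with its macrophage sum of 20850 CPM, was the lowest of its group. The part of that composition in its level was not tested. The mean rose from 9.15 ± 0.439 to 134.3 ± 36.5 CPM (SD, n = 3 each). This was a log2 fold change of 3.87 (SE 0.24, 95% interval 3.29 to 4.45) with an edgeR adjusted p of 0.000634. It was called in all 14 alternatives, with log2 fold changes from 3.73 to 4.14 and a highest adjusted p of 0.011 (edgeR without control replicate 2). Without replicate 3 of both groups the change was 17.7-fold.

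Zc3h12c (chr9:52111344-52168572, minus strand) encodes Regnase-3, a paralog described in macrophages. It had 304, 321 and 372 counts in control, or 12.9, 14.2 and 15.4 CPM. In LPS replicates 1, 2 and 3 it had 655, 592 and 730 counts, or 32.4, 33.0 and 38.2 CPM. The groups were well apart, and unlike Zc3h12a the highest LPS value was in replicate 3. The mean rose from 14.2 ± 1.25 to 34.5 ± 3.21 CPM (SD, n = 3 each). This was a log2 fold change of 1.29 (SE 0.11, 95% interval 1.00 to 1.57) with an edgeR adjusted p of 0.00239. It was called in all 14 alternatives, with log2 fold changes from 1.13 to 1.36 and a highest adjusted p of 0.0234 (edgeR without control replicate 2).

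Since both Regnases rose, their upstream sequences were read (RefSeq, GRCm38.p6). Windows of 300 bases, from 250 before to 50 after an annotated start, were found for 8 of the 9 regulators, 9 windows in all with 2 for Zc3h12c. Each was searched on both strands for the NF-κB consensus alone. A match occurred in 1 window, that of the outer Zc3h12c start, 236 bases upstream of it, and in 8.5% of 32851 promoters. No window was found for Zfp36l2. The RefSeq starts of Zfp36, Elavl1 and the inner Zc3h12c window lie 1025, 313 and 19209 bases inside the GENCODE genes. These windows therefore do not reach the bases before the GENCODE start. The 250 upstream bases are given for Zc3h12a and for the outer start of Zc3h12c, both on the minus strand, with the match in capitals. The GENCODE start of Zc3h12c lies 166 bases further upstream than this RefSeq start, so part of the window is inside the GENCODE gene and the match is 70 bases upstream of the GENCODE start.
Zc3h12a, chr4:125127882-125128131: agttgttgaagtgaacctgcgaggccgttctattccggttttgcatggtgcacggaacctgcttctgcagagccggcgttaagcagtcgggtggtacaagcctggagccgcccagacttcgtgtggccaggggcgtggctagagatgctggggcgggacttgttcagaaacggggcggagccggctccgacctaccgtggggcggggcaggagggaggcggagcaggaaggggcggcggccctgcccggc
Zc3h12c, chr9:52168407-52168656: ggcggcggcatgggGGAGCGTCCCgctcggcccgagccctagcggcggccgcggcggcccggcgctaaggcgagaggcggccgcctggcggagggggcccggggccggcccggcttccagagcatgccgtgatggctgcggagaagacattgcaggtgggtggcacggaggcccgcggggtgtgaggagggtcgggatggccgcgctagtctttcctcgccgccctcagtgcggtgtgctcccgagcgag

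The Zc3h12a window holds no such match, which says only that these letters are not in this window. The upstream bases were 66.4% G or C in Zc3h12a and 76.4% in the outer Zc3h12c window.

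The Roquins, RING and zinc finger proteins that recognize stem-loop decay elements, were not called. Rc3h1 (chr1:160906418-160974978, plus strand), encoding Roquin-1, was at 63.9, 64.9 and 63.7 CPM in control and at 58.5, 57.7 and 63.1 CPM under LPS. All LPS values were below all control values, by a margin of under 1 CPM for LPS replicate 3. The log2 fold change was -0.10 (SE 0.07, 95% interval -0.27 to 0.06), with an edgeR adjusted p of 0.346. Library size alone gave -0.26 with an edgeR adjusted p of 0.0402. Rc3h2 (chr2:37370069-37422903, minus strand), encoding Roquin-2, ranged from 59.8 to 62.7 CPM in control and from 59.2 to 61.6 CPM in LPS. Its log2 fold change was -0.01 (SE 0.06, 95% interval -0.16 to 0.14), the narrowest interval among the 9, with an edgeR adjusted p of 0.923. This interval leaves room for a change of at most 0.16 on the log2 scale in either direction.

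Elavl1 (chr8:4285382-4325413, minus strand), encoding the stabilizing protein HuR, was at 72.9, 68.4 and 70.0 CPM in control and at 81.5, 76.3 and 83.1 CPM under LPS. Each LPS library was above each control library. The log2 fold change was 0.19 (SE 0.07, 95% interval 0.02 to 0.36), and with an edgeR adjusted p of 0.119 it did not pass the test. DESeq2 gave 0.20 with an adjusted p of 0.0497, the single alternative of 14 that called it. Upper-quartile factors gave 0.08 (edgeR adjusted p = 0.449) and library size alone 0.03 (edgeR adjusted p = 0.785). Khsrp (chr17:57021051-57031522, minus strand), encoding the decay-promoting protein KSRP, ranged from 120.7 to 136.6 CPM in control and from 117.3 to 126.4 CPM in LPS. Its log2 fold change was -0.04 (SE 0.08, 95% interval -0.24 to 0.16), with an edgeR adjusted p of 0.775.

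**Figure D2:**
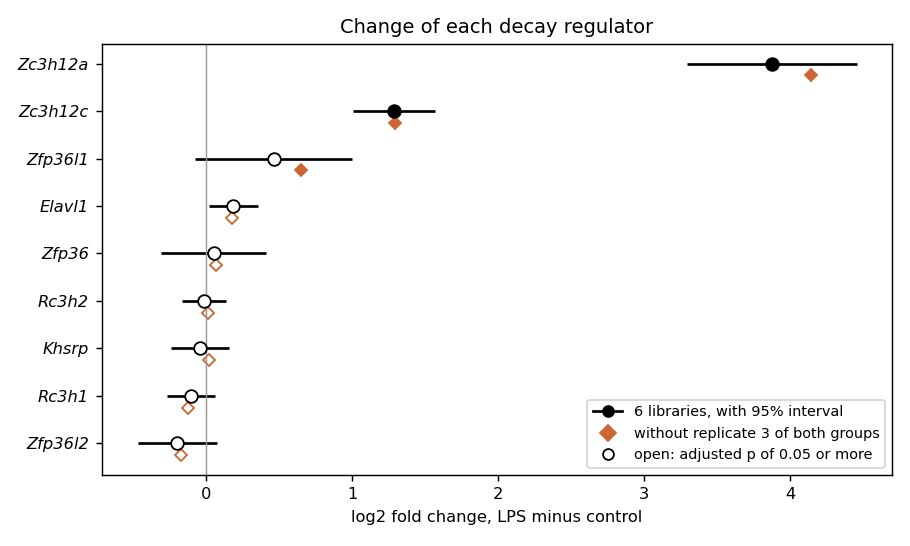
Log2 fold change (LPS minus control) of each regulator in the edgeR fit of 6 libraries (circles, lines for the 95% interval) and without replicate 3 of both groups (diamonds), filled where the adjusted p was under 0.05. Zc3h12a at 3.87 and Zc3h12c at 1.29 are filled in both fits, and Zfp36l1 is filled only without replicate 3.

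Some counts carry an uncertainty of assignment, because the handling of reads with several alignments and of strand in the counting is not given in the sources used here. On the opposite strand, Gm26669, a noncoding RNA, covers 55.9% of the exon bases of Zfp36l1 and had 47 counts in all 6 libraries. Ccl25 covers 1.97% of the exon bases of Elavl1 and had 354 counts in all, and the other opposite-strand overlaps cover at most 3.6% of a regulator. Of the 50-base words of annotated transcripts, 3.12% in Zfp36l1 are shared with other genes (the pseudogene Zfp36l1-ps), 1.76% in Zfp36, 1.57% in Khsrp, 0.65% in Rc3h2 and 0.18% in Zc3h12a. The remaining 4 regulators share none.

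To compare regulators with each other, levels were divided by exon length. This length is the union of the exons of all annotated transcripts of a gene, and not that of the mRNA expressed here. It was 3470 bases for Zfp36, 10363 for Elavl1 and 19624 for Rc3h2, so the order and the shares per exon length depend on the annotation. On this scale of CPM per kb of exon, the control level was 52.9 ± 3.44 for Zfp36l1, 39.9 ± 4.09 for Zfp36l2, 29.2 ± 2.07 for Khsrp and 13.9 ± 1.91 for Zfp36 (SD, n = 3 each). It was 6.8 ± 0.22 for Elavl1, 5.67 ± 0.0559 for Rc3h1, 3.18 ± 0.152 for Zc3h12a, 3.1 ± 0.0833 for Rc3h2 and 2.07 ± 0.182 for Zc3h12c. In the control libraries each gene in this order was above the next one without overlap, except Zc3h12a and Rc3h2, which did not differ beyond their spread and changed places without control replicate 3. Zfp36l1 was above 94.9% of tested genes in control CPM per kb, and Zc3h12a above 39.7%. Without the division by length, 6 of the 9 took another place.

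In LPS the order changed at the Regnases. Zc3h12a reached 46.6 ± 12.7 CPM per kb of exon, above 93.0% of tested genes, and moved from place 7 to place 2, behind Zfp36l1 at 73.0 ± 20.3 CPM per kb (SD, n = 3 each). Its range of 32.2 to 55.8 CPM per kb overlapped that of Zfp36l1 (49.5 to 85.7) above it and that of Zfp36l2 (32.5 to 38.6) below it. Zc3h12c reached 5.04 ± 0.469 CPM per kb of exon, overlapped Rc3h1 at 5.29 ± 0.26, and lay above Rc3h2 at 3.08 ± 0.0622 (SD, n = 3 each).

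**Figure D3:**
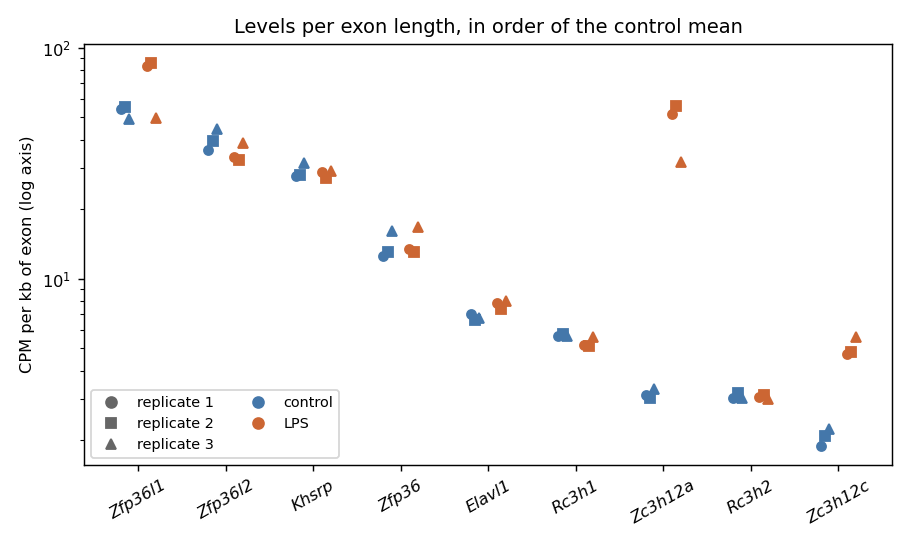
Level of each regulator in CPM per kb of exon (log axis) in each library, in the order of the control mean, with colours for the group and symbols for the replicate number. Zc3h12a moves from 3.18 in control to 46.6 in LPS, into the range of Zfp36l1 and Zfp36l2.

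Ratios between 2 regulators within a library need no scaling factor, and 7 pairs were compared by an exact permutation test over libraries (two-sided, n = 3 against 3, smallest possible p = 0.1). The ratios are of counts, so only their difference between groups is read. Zc3h12a counts were 0.704, 0.617 and 0.627 times those of Zc3h12c in control and 4.61, 4.87 and 2.42 times under LPS. The ratio was higher in every LPS library than in every control library, with a difference in log2 ratio of 2.55 (exact p = 0.1, adjusted over the 7 pairs 0.233). Per exon length, Zc3h12a was the higher Regnase in every library of both groups, and it made up 60.6 ± 1.72% of the summed level of both Regnases in control and 89.6 ± 3.84% in LPS (SD, n = 3 each).

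Within the tristetraprolin family, the ratio of Zfp36 to Zfp36l2 counts was 0.341, 0.326 and 0.357 in control and 0.394, 0.393 and 0.428 under LPS. These did not overlap, with a difference in log2 ratio of 0.25 (exact p = 0.1, adjusted 0.233). Zfp36l1 to Zfp36l2 differed by 0.62 (exact p = 0.3) and Zfp36 to Zfp36l1 by -0.37 (exact p = 0.5), and in both pairs the groups overlapped through replicate 3. Without LPS replicate 3 the differences were 0.95 and -0.74. Between same-numbered libraries, Zfp36l1 to Zfp36l2 was higher under LPS in 3 of 3 pairs (exact paired p = 0.25, the smallest that 3 pairs can give) and Zfp36 to Zfp36l1 in 1 of 3 (exact paired p = 0.5). Per exon length, Zfp36l1 made up 49.6 ± 4.26% of the family in control and 58.9 ± 10.1% in LPS (SD, n = 3 each), with 47.2% in LPS replicate 3 against 64.0% and 65.3% in LPS replicates 1 and 2. The share of Zfp36 was 13.0 ± 1.48% in control and 12.1 ± 3.43% in LPS (SD, n = 3 each).

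Of the remaining pairs, the ratio of Khsrp to Elavl1 counts, a decay factor to a stabilizer, was 1.65, 1.78 and 1.95 in control and 1.53, 1.54 and 1.52 under LPS. It was lower in each LPS library, with a difference in log2 ratio of -0.23 (exact p = 0.1, adjusted 0.233). Zfp36 to Elavl1 differed by -0.13 (exact p = 0.5) and Rc3h1 to Rc3h2 by -0.09 (exact p = 0.4), with overlapping groups. Leaving out single libraries moved the first from -0.23 (without control replicate 1) to -0.02 (without control replicate 3), and the second from -0.15 (without LPS replicate 3) to -0.05 (without LPS replicate 2). Between same-numbered libraries, Zfp36 to Elavl1 was lower under LPS in 3 of 3 pairs (exact paired p = 0.25). No pair could reach 0.05 in these permutation tests.

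**Figure D4:**
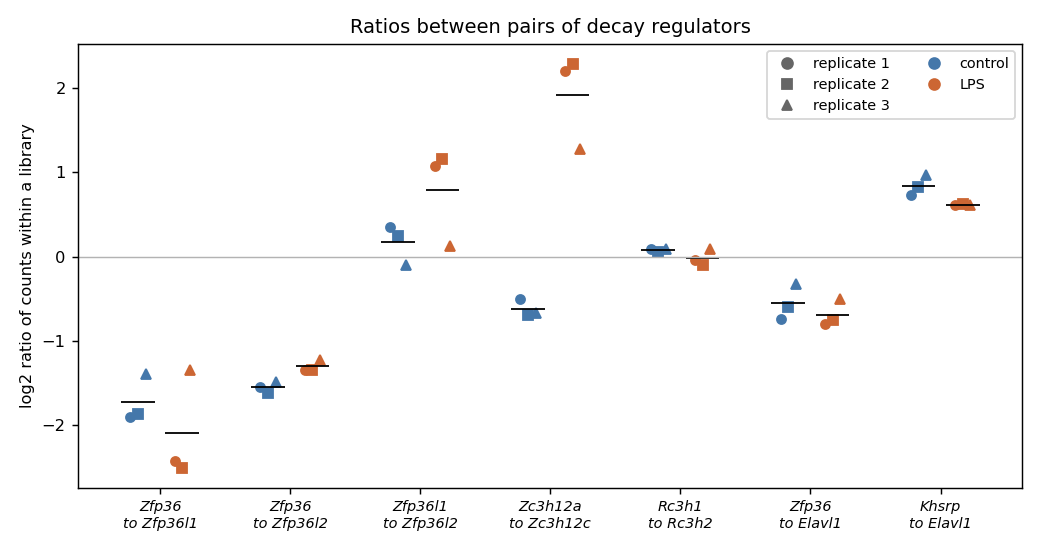
Log2 ratio of counts between 2 regulators within each library, for 7 pairs, with colours for the group, symbols for the replicate number and lines for the group mean. The ratio of Zc3h12a to Zc3h12c is higher in each LPS library than in each control library, and replicate 3 stands apart in the pairs with Zfp36l1.

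For each Regnase, the 4 genes with the most similar profile were taken, by the smallest root mean square difference of centred log2 CPM over the 6 libraries, among 11479 other genes with a mean of at least 5 CPM. The choice by profile fixes that their fold changes lie near that of the Regnase. For Zc3h12a these were Gm4070, Gbp9, Nfkbia and Acpp, with differences from 0.198 to 0.232 and log2 fold changes from 3.47 to 4.01. Nfkbia encodes the NF-κB inhibitor IκBα and had a log2 fold change of 3.47 (SE 0.15). For Zc3h12c they were Slc48a1, Tdrd7, Zc3hav1 and Susd6, with differences from 0.055 to 0.076 and log2 fold changes from 1.17 to 1.27. Zc3hav1 encodes an antiviral CCCH zinc finger protein and had a log2 fold change of 1.20 (SE 0.12).

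The rest of the decay pathway was then described by lists. Among 14 tested relatives and other RNA-binding regulators 1 rose, a share no higher than the 9.09% of all tested genes, and 13 did not pass the test, with a median log2 fold change of -0.02. The one that rose was Arid5a, a protein that protects Il6 mRNA from Regnase-1, at 7.2, 7.08 and 14.7 CPM in control and 23.4, 25.6 and 27.4 CPM under LPS. Its groups did not overlap, and its log2 fold change was 1.40 (SE 0.31, edgeR adjusted p = 0.0352). This call was lost in 5 of the 6 fits that left out a single library, all but the one without control replicate 3. The Regnase relative Zc3h12d was highest in replicate 3 of each group, with 15.5 and 12.1 CPM in replicate 3 of control and LPS and between 0.939 and 6.69 CPM elsewhere. It was named after its values were seen.

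The general decay machinery was counted in the same way. Of 17 tested deadenylation genes, 2 rose and 1 fell, with a median log2 fold change of 0.06. These shares are close to the 9.09% and 6.71% of all tested genes called higher and lower. Btg1, an antiproliferative protein that binds the deadenylase, went from 99.2 ± 8.15 to 195.8 ± 8.77 CPM (log2 fold change 0.98, SE 0.09, edgeR adjusted p = 0.00238). Cnot7, a catalytic subunit of CCR4-NOT, went from 56.9 ± 0.83 to 82.5 ± 12.9 CPM (0.53, SE 0.12, edgeR adjusted p = 0.0388), and Parn, a separate poly(A) nuclease, fell from 31.8 ± 1.0 to 21.9 ± 1.96 CPM (-0.54, SE 0.10, edgeR adjusted p = 0.0192; SD, n = 3 each). None of 11 tested genes of decapping and 5′ decay was called by edgeR in either direction, while 3 had an unadjusted p under 0.05, all higher, and DESeq2 called 2 higher. Edc3, an enhancer of decapping, had the smallest adjusted p of that list (log2 fold change 0.34, SE 0.10, edgeR adjusted p = 0.0786). Of 13 tested exosome genes 1 rose, against 9.09% of all tested genes. This was Exosc10, a catalytic subunit in the nucleus (log2 fold change 0.41, SE 0.08, edgeR adjusted p = 0.021). Btg1 was called in all 14 alternatives. The calls of Parn and Exosc10 were each lost without control replicate 1 or 2 or LPS replicate 1 or 2, that of Cnot7 without any single library but LPS replicate 3, and those of Exosc10 and Cnot7 also with upper-quartile factors or library size alone. Cnot7 was also not called when no filter was applied.

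Of 11 tested genes that signal to the regulators, 4 rose, where 9.09% of all tested genes did, with a median log2 fold change of 0.39. Malt1, a protease known to cleave Regnase-1 and Roquins, went from 11.5 ± 4.27 to 48.2 ± 15.6 CPM (SD, n = 3 each). Mapkapk2, the kinase that phosphorylates tristetraprolin, went from 157.2 ± 25.9 to 354.1 ± 18.9 CPM, and Tank, an adaptor protein, from 48.0 ± 2.26 to 102.7 ± 1.59 CPM (SD, n = 3 each). Ikbkb, a kinase that marks Regnase-1 for degradation, went from 68.7 ± 5.62 to 96.7 ± 3.54 CPM (SD, n = 3 each). Their log2 fold changes were 2.06, 1.17, 1.10 and 0.49, with edgeR adjusted p-values of 0.0164, 0.00509, 0.000634 and 0.0165. The calls of Malt1 and Ikbkb were lost without control replicate 1 or 2 or LPS replicate 1 or 2, and those of Mapkapk2 and Tank held in all 14 alternatives.

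Of 22 transcripts known as targets of these regulators, 19 were tested and 15 were called higher, where 9.09% of all tested genes were, with a median log2 fold change of 3.72. Several of these passed the filter only through their LPS counts, so that they had to differ. Of the 11 targets with at least 10 counts in every library, 9 were called higher, where 8.71% of all genes under that filter were, with a median of 3.56. By the rule for naming, the 3 with the largest fitted changes were Il1b, Cxcl2 and Il12b, which encode a cytokine, a chemokine and the p40 chain of interleukin-12. Il1b had 3 counts in the 3 control libraries together and 8084, 8969 and 6150 under LPS, a ratio of 9500 with an exact 95% counting interval of 3250 to 46100. Cxcl2 had 9 control counts in all and 5552, 7553 and 779 under LPS, a ratio of 1900 (998 to 4150). Il12b had 1 control count in all and 259, 645 and 70 under LPS, a ratio of 1200 (214 to 47300). These intervals cover counting error only, and all 3 genes were lowest in LPS replicate 3, as Zc3h12a was. Il2 and Ifng had no count in any library, which allows a level of up to 0.124 to 0.167 CPM by library.

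No gene was called lower in the lists of relatives, exosome, signalling and target transcripts, against 6.71% of all tested genes. None of these had an unadjusted p under 0.05 in that direction, and DESeq2 called none lower. Library size alone called 1 of the relatives lower, where it called 2054 genes lower in all. Without LPS replicate 3, edgeR also called 1 of the relatives lower, where 21.7% of all genes were called in either direction. Without replicate 3 of both groups, edgeR called 1 higher and 2 lower of the relatives, 2 higher and 2 lower of deadenylation, 4 higher of decapping, 3 higher of the exosome, 7 higher and 1 lower of signalling and 17 higher of the targets, in a fit that called 43.0% of all genes. With the replicate block it called 3 of decapping, 2 of the exosome, 6 of signalling and 17 of the targets higher, and 1 of signalling lower, where 30.3% of all genes were called. Without control replicate 2, at the other end, edgeR called 8 of the targets, 2 of signalling and 1 of deadenylation higher and none of the relatives, decapping or the exosome, where 3.15% of all genes were called. Il12b and Cxcl2 were not called without control replicate 2, nor Il12b without control replicate 1.

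**Figure D5:**
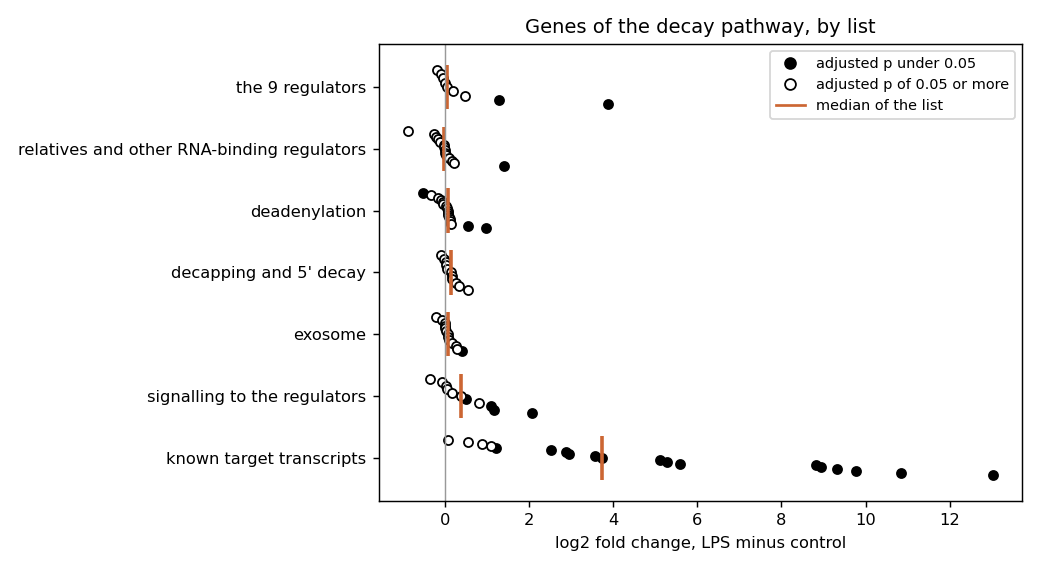
Log2 fold change (LPS minus control) of each tested gene of the decay pathway, by list, filled where the edgeR adjusted p was under 0.05, with a bar at the median of each list. Medians lie near 0 for the 9 regulators and the decay machinery, at 0.39 for signalling and at 3.72 for target transcripts. Several of these targets passed the filter only through their LPS counts, and the median was 3.56 over those with at least 10 counts in every library.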

How the data were processed

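Poly(A) RNA was sequenced from 3 control and 3 LPS-treated libraries, grouped by their titles. The authors deposited one table of unnormalized counts per library, with a row for each gene. The authors trimmed and filtered reads, removed contaminants and aligned the rest to GRCm38, and the submitters' processing notes list STAR 2.5.2b and featureCounts 1.5.3. The library kit marks strand, but the strand and multi-mapping settings of the counting are not given in the sources used here. No pair of libraries held identical values.

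From these counts, genes were filtered with filterByExpr (minimum count 10, minimum total 15), which left 15226 of 46603. TMM factors were 0.917 to 1.08. LPS was compared with control by the edgeR 4.0.16 quasi-likelihood F-test (R 4.3.3, two-sided, group as single term, Benjamini-Hochberg adjustment over all tested genes, called under 0.05). The SE is the absolute log2 fold change divided by the square root of F. A count of 3, the detection floor, was 0.124 to 0.167 CPM. The test was first run on simulated counts. These held neither the shift of replicate 3 nor a pairing of libraries, so they cannot show how the test handles them. Alternatives were other scaling factors, other filters, DESeq2 1.42.0, the replicate number as a block, each library left out, and replicate 3 of both groups left out. The labels do not say what the numbers stand for. Deviations from the group means correlated between same-numbered libraries with r = 0.513, 0.334 and 0.613 across genes. Pairing by number was therefore used in the block and in the paired tests, while the main fit left it out. Between numbers 1 and 2 the crossed pairs also gave r = 0.419 and 0.323, so the deviations set replicate 3 apart and do not separate replicates 1 and 2.

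The 9 regulators and the lists (relatives, deadenylation, decapping and 5′ decay, exosome, signalling, target transcripts, and markers of glia, macrophages, mesenchymal cells, smooth muscle and neurons) were chosen with earlier results of these data known. Within a list, called genes were named up to 6, otherwise the 3 with the largest fold change, or the gene with the smallest adjusted p where none was called. Coordinates, exon lengths and 3′ UTRs come from GENCODE M21, which held 98.9% of the identifiers, and promoters from RefSeq. Protein sequences were not used here.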

Additional observations from a re-analysis of the deposited data

How the results depend on the processing

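Zc3h12a and Zc3h12c were called higher in each of the 14 alternatives, and leaving out single libraries gave 2 or 3 regulators called higher and 0 called lower. Library size alone called 2 regulators lower (Rc3h1 and Zfp36l2). The sign of values near 0 turned in 3 regulators, and none of these values was called. Zfp36 was at -0.051 with upper-quartile factors, at -0.101 when scaled by library size alone, and between -0.073 and 0.188 when single libraries were left out. Rc3h2 was at 0.0048 with relative log expression factors, 0.0047 with DESeq2, 0.01 without replicate 3 of both groups, and between -0.025 and 0.019 when single libraries were left out. Khsrp was at 0.02 without replicate 3 of both groups and between -0.064 and 0.036 when single libraries were left out. The median of all tested genes was -0.12 under upper-quartile scaling and -0.17 under library size alone, against -0.02 with TMM.

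Over all tested genes, the numbers called higher (1384) and lower (1022) moved more. DESeq2 called 2079 and 1673, the replicate block 2343 and 2273, and the fit without replicate 3 of both groups 3498 and 3159. Upper-quartile factors called 1589 lower and library size alone 2054. Single libraries left out gave 379 to 1964 called higher and 112 to 1426 called lower. The cause was not tested. With the replicate block the same 2 regulators were called, at 3.83 (adjusted p = 0.00132) for Zc3h12a and 1.29 (adjusted p = 0.00135) for Zc3h12c. In a test of same-numbered differences the exact p of the 7 log2 ratios was 0.25 or 0.5, and 0.25 is the smallest that 3 pairs can give. When single libraries were left out, the differences in log2 ratio ranged from 2.37 to 2.87 for Zc3h12a to Zc3h12c, from -0.74 to -0.16 for Zfp36 to Zfp36l1, from 0.43 to 0.95 for Zfp36l1 to Zfp36l2, from 0.21 to 0.28 for Zfp36 to Zfp36l2, from -0.28 to -0.16 for Khsrp to Elavl1, from -0.23 to -0.02 for Zfp36 to Elavl1 and from -0.15 to -0.05 for Rc3h1 to Rc3h2. At 8.77 CPM or more in every library, each regulator was well above the detection floor.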
